A study of Mus musculus with 16 samples.

Results

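Fibronectin, its relative Fndc1 and the matricellular proteins were examined in bone marrow stromal cells of mice with and without sickle cell disease. The 10 genes are Fn1, Fndc1, Postn, Tnc, Thbs1, Thbs2, Sparc, Sparcl1, Ctgf and Cyr61, taken by symbol from the 52459 genes of the count table. All 10 were in the table and all 10 passed the filter on low counts. They were picked by name from earlier results of this same genotype comparison, in which Fndc1 was among the leading genes. The genotype differences below are therefore a description, with no claim resting on them, and the adjusted p-values only place each gene among all genes tested.

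The cells came from Townes mice, whose own adult globin genes are replaced by human ones. Both genotypes carry the human alpha globin gene on both alleles (hα/hα). SS mice are homozygous for human sickle beta globin (βS/βS), on an allele that also holds the human Aγ-globin gene, and have the disease. SA mice are heterozygous (βA/βS), with 1 sickle and 1 normal beta globin, so the controls carry a sickle allele too. Marrow was digested with enzymes and live single cells were sorted that lacked CD45, Ter119 and CD31 and carried CD51 and CD140a. Each genotype has 4 libraries, numbered 1 to 4. The ages of the mice were not stated. The labels leave unsaid whether the libraries come from separate animals, and otherwise the errors and p-values below would cover only library-to-library spread.

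Fibronectin is a large secreted glycoprotein that cells assemble into fibrils through integrins, and those fibrils are the scaffold on which collagen and other matrix proteins are laid down. Matricellular proteins are secreted into the same matrix but build little of it; they bind receptors, growth factors and proteases and so tune how cells adhere, migrate and respond to signals. In marrow, the stromal cells that feed blood stem cells make most of this matrix, and tenascin-C in particular is known to support blood formation after injury.

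Several facts of the whole series bear on these genes. Total counts per library ran from 24797857 to 31117007, and single members had between 456 and 281231 counts in a library. Summed levels of 15 pan-leukocyte markers were 3062 to 5076 CPM (counts scaled to the library total) in SA replicates 1 and 2 and SS replicate 1, and 419 to 1557 CPM in the other 5 libraries. These are called the 3 leukocyte-rich libraries below. Pdgfra, which encodes the sorted CD140a, was present in every library at 169 to 481 CPM, and Itgav, which encodes CD51, at 252 to 820 CPM. Ptprc, which encodes the gated-out CD45, was at 49.7 to 748 CPM. Xist, transcribed in female cells, reached 2076 CPM in the library SS replicate 2, with no other library over 14.8 CPM. For 1 lane of SS replicate 4 the title says SS but the source says SA; the library was treated as SS. Date-like numbers in the titles fall into 3 sets, and no set holds both genotypes, so these and the genotype cannot be told apart. SS replicate 2 was the only library of its set, so its Xist level and its set cannot be told apart. In bulk samples such as these, fewer cells of a type and less RNA per cell cannot be told apart either.

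Across the 10 genes, 3 lay wholly above the control range in the diseased mice. Fndc1, Thbs2 and Cyr61 were each higher in every SS library than in every SA library, and none was lower in every SS library. Over all 17316 genes tested, 2.36% were higher and 1.55% lower without overlap; since the genes were picked in view of this comparison, nothing is read from the difference in shares. Their promoters are shown because they are the genes whose genotypes did not overlap. Each window runs from 250 bases before to 50 bases after the RefSeq start site on GRCm38.p6, along the gene's own strand, with matches to the motifs searched in capitals. They lie at chr17:7827253-7827552 (minus strand) for Fndc1, chr17:14694213-14694512 (minus strand) for Thbs2 and chr3:145649936-145650235 (minus strand) for Cyr61.
Fndc1: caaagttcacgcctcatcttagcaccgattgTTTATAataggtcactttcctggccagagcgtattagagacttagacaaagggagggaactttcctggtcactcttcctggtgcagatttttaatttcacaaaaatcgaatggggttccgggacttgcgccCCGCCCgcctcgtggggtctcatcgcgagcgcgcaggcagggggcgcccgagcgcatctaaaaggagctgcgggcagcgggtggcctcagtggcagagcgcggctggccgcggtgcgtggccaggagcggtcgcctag
Thbs2: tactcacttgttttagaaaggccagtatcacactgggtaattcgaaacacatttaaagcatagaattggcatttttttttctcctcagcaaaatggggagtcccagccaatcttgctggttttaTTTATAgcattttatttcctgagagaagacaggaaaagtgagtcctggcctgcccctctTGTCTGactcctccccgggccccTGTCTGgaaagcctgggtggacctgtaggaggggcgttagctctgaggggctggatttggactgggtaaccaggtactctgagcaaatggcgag
Cyr61: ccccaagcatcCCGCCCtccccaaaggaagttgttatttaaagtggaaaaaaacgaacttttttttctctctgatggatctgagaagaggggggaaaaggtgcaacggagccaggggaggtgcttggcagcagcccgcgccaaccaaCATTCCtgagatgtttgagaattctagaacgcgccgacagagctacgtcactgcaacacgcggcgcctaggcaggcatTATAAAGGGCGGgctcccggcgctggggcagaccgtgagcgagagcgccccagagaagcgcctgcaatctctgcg

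The motifs searched, on both strands, were GGAATG for TEAD factors, TGANTCA for AP-1, GGGCGG for the GC box, TATAAA for the TATA box, CAGACA for SMAD proteins and the CArG box of serum response factor by its usual form. The Cyr61 window held TATAAA starting 25 bases before the start site, followed directly by a GC box, with a second GC box on the opposite strand, 239 bases before the start site. It also held the TEAD motif on the opposite strand, 103 bases before the start. The Fndc1 window held 1 GC box on the opposite strand, 88 bases before the start, and a TATA match on the opposite strand 219 bases before it. In the Thbs2 window there were 2 SMAD matches on the opposite strand, 67 and 44 bases before the start, and a TATA match on that strand at 126 bases. Neither the AP-1 motif nor the CArG box was in any of the 3 windows. Of 32851 RefSeq windows of the same length, 14.7% held the TEAD motif, 7.81% AP-1, 35.7% the GC box, 13.6% TATAAA, 21% the SMAD motif and 1.63% a CArG box. A match describes letters in the window and nothing more. RefSeq windows were found for 6 of the 10 genes.

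Fndc1, a protein with fibronectin type III domains, had the largest genotype difference of the 10. It was at 32.9, 28.9, 28.2 and 34.7 CPM in SA replicates 1 to 4 and at 81.1, 189.9, 251 and 132 CPM in SS replicates 1 to 4. The SA libraries lay close together, while the SS libraries spread widely, with SS replicate 3 as the highest. The lowest SS library, replicate 1, was the leukocyte-rich one of that genotype, with a pan-leukocyte sum of 3062 CPM where SS replicates 2 to 4 had 419 to 1348 CPM. It was also the lowest SS library for Thbs2 and Cyr61, and the part of leukocyte content in this was not tested. The means were 31.2 ± 3.13 and 163 ± 73.2 CPM (SD, n = 4 each). That is 5.24-fold higher in SS, or a log2 fold change of 2.39 (SE 0.32, 95% interval 1.67 to 3.11), the second smallest p of the table, with an adjusted p of 0.148. By DESeq2 the adjusted p was 2.7e-07. With the 3 leukocyte-rich libraries left out the log2 fold change was 2.60, and with the pan-leukocyte level as a covariate 2.22. The gene spans chromosome 17 from 7738569 to 7827302 on GRCm38, on the minus strand, and is annotated as protein-coding.

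Summed markers of some other cells also did not overlap between the genotypes. The pericyte and fibroblast sums were higher in SS, as were Fndc1, Thbs2 and Cyr61, and the B cell sum was lower. The 11 pericyte and smooth muscle markers summed to 673 to 860 CPM in SA and 1313 to 6606 CPM in SS. The 12 B cell markers summed to 463 to 646 CPM in SA and 330 to 392 CPM in SS. Their median log2 fold change was -3.13, a far larger fall than that of their sum. The sum is thus a poor guide to B cell content. In SS replicate 4, which had the lowest pan-leukocyte sum at 419 CPM, the B cell sum was still 389 CPM. In SA the B cell sum was highest in the leukocyte-rich replicates 1 and 2, but in SS it was lowest in the leukocyte-rich replicate 1. Singly, 3 of the 12 B cell markers were lower in every SS library than in every SA library, against 1.55% of all genes tested. Of 9 tested fibroblast markers 3 were higher without overlap, and of 11 pericyte and smooth muscle markers 2, against 2.36% of all genes tested. The 10 markers of fibroblasts, Ly6a and Thy1 positive cells among them, summed to 58.3 to 125.05 CPM in SA. In SS they summed to 125.82 to 178 CPM. The highest SA sum, in replicate 1, and the lowest SS sum, in replicate 2, were thus nearly equal, while Fndc1 was at 32.9 and 189.9 CPM there. In SA the fibroblast sum was highest in the leukocyte-rich replicates 1 and 2, at 125.05 and 119 CPM. It was 69.4 and 58.3 CPM in SA replicates 3 and 4. The 9 tested fibroblast markers had a median log2 fold change of 1.61, a larger rise than that of the sum. The sum is thus a poor guide to fibroblast content too. The fibroblast sums were far below the 15059 to 32862 CPM of the 10 niche stroma markers. Most of the niche stroma sum was Cxcl12, at 10504 to 23454 CPM, so the gap does not rank cell content. SS replicate 3, highest for Fndc1, was also highest for the fibroblast sum and for Ly6a. Ly6a was at 81.9 CPM there, against 5.92 to 37.7 CPM in the other libraries. Thy1 was instead highest in SS replicate 4, at 51 CPM, with 30.9 CPM in SS replicate 3. No marker of these 3 lists was at 0 in every library. The part of these cells in the differences of the 3 genes was not tested.

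Fn1, fibronectin itself, showed no such separation. Its CPM values were 925, 954, 613 and 631 in SA and 896, 1079.6, 325 and 1509 in SS. Both the lowest and the highest library were SS, replicates 3 and 4, so the SS range enclosed the SA range. The SA mean was 781 ± 184 CPM and the SS mean 952 ± 491 CPM (difference on the log2 scale 0.29, SE 0.39, adjusted p = 0.905), with a 95% interval of -0.56 to 1.14. Without SS replicate 4 the log2 fold change was -0.02. In that library markers of pericytes and smooth muscle summed to 6606 CPM, against 673 to 1840 CPM in the other 7, and their part was not tested. Per length, Fndc1 stood at 0.0357 to 0.0649 of the Fn1 level in the SA libraries and at 0.103 to 0.910 of it in the SS libraries, where SS replicate 3 gave the highest ratio and had the lowest Fn1.

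**Figure D1:**
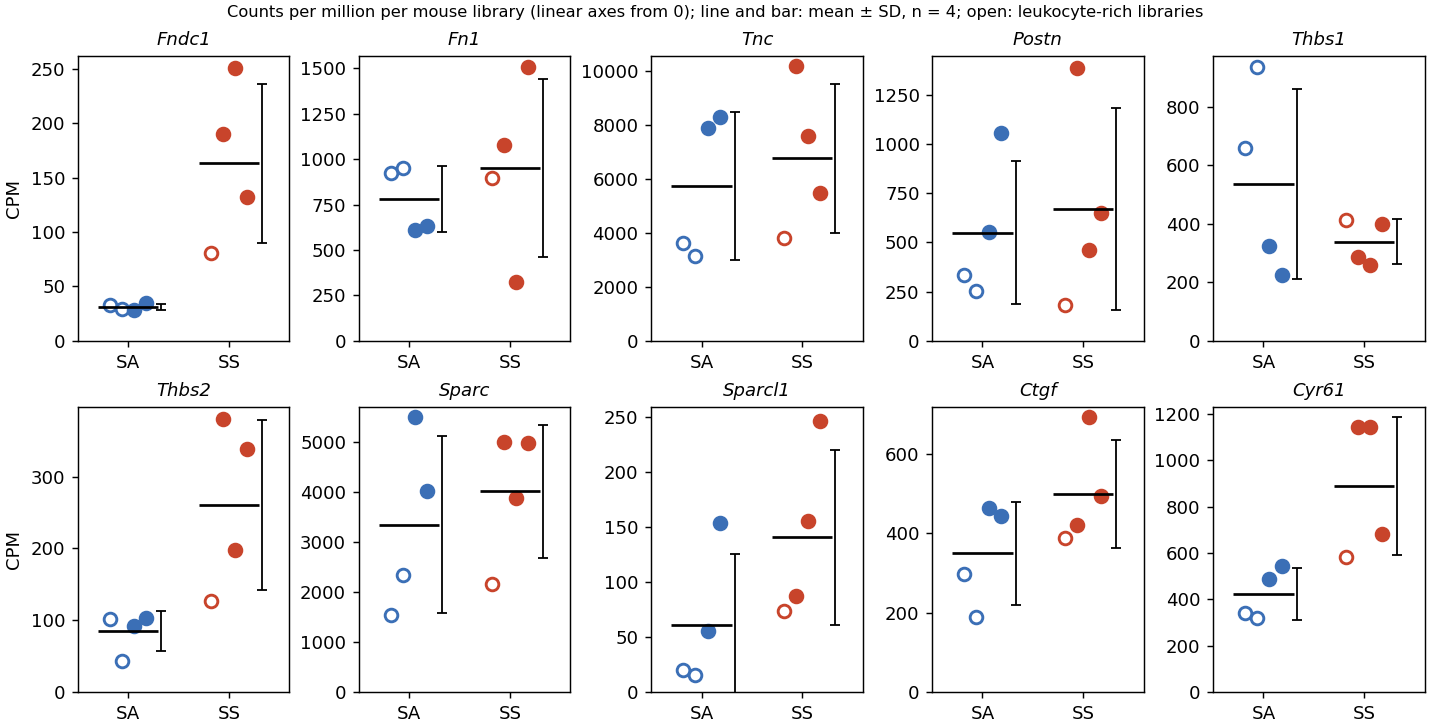
CPM of each gene in every library, SA in blue and SS in red, replicates 1 to 4 from left to right within a genotype, on linear axes from 0. Lines and bars are the mean ± SD of 4 libraries (bars cut at 0), and open circles are the 3 leukocyte-rich libraries; only Fndc1, Thbs2 and Cyr61 have all SS points above all SA points.

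Tenascin-C and periostin, matricellular proteins known from growing and injured tissue, overlapped widely between genotypes. Tnc was at 3612, 3143, 7866 and 8301 CPM in SA and at 3790, 10182, 7595 and 5485 CPM in SS. Its 3 lowest libraries were the 3 leukocyte-rich ones, 2 of SA and 1 of SS. The means were 5731 ± 2729 and 6763 ± 2760 CPM (log2 fold change 0.24, SE 0.39, 95% interval -0.63 to 1.11, adjusted p = 0.929), and the value was -0.07 once the leukocyte-rich libraries were dropped.

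Postn was at 333, 252, 555 and 1059 CPM in SA and at 180.2, 1386, 463 and 651 CPM in SS. SA replicate 4 and SS replicate 2 stood above the rest of their genotypes, and again the leukocyte-rich libraries were the 3 lowest. The difference of the means was small beside the spread (log2 fold change 0.29, SE 0.58, 95% interval -0.996 to 1.57, adjusted p = 0.951). It turned to -0.90 with the leukocyte covariate and to -0.35 without SS replicate 2. That library was also the one with high Xist and the only one of its title set, and their part was not tested. Osteoblast markers summed to 5575 and 5831 CPM in SA replicates 3 and 4 and to 4426 CPM in SS replicate 2, against 1426 to 2544 CPM in the other libraries. Those 3 are the libraries with the highest Tnc. They also had the highest sums of tendon and cartilage markers, at 511, 418 and 659 CPM against 85.3 to 247 CPM elsewhere. The same held for the niche stroma markers, at 32694, 32862 and 32334 CPM against 15059 to 30184 CPM elsewhere. The part of osteoblast, tendon and cartilage or niche stroma content was not tested.

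The means of the 2 thrombospondins lay in opposite directions, but that of Thbs1 did so only while the leukocyte-rich libraries were in and no leukocyte covariate was used. The difference between the 2 genes was not tested. Thbs1 encodes thrombospondin-1, which platelets store and which can activate latent TGF-beta, while thrombospondin-2 is made mainly by connective tissue cells and restrains vessel growth. Thbs2 was at 102, 43.6, 91.9 and 103 CPM in SA and at 126, 380.1, 198 and 339 CPM in SS. SS replicate 1 lay just above the SA libraries and the other 3 SS libraries well above them. The means of 85.2 ± 28.1 and 261 ± 119 CPM gave a log2 fold change of 1.61 (SE 0.38, 95% interval 0.77 to 2.45, adjusted p = 0.52; by DESeq2 adjusted p = 0.0216). With the leukocyte covariate the value was 0.93, and without the leukocyte-rich libraries 1.65.

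Thbs1 was at 658, 937, 325 and 224 CPM in SA and at 412, 287, 258 and 399.7 CPM in SS. It was the only one of the 10 genes whose SS mean was below its SA mean, at 339 ± 78.2 against 536 ± 325 CPM, and its 3 highest libraries were the leukocyte-rich ones. The log2 fold change was -0.66 (SE 0.40, 95% interval -1.54 to 0.22, adjusted p = 0.765). It was 0.20 without the leukocyte-rich libraries and 0.0064 with the covariate. Megakaryocyte and platelet markers summed to 336 and 396 CPM in SA replicates 1 and 2, the highest for Thbs1, and to 7.17 to 43.3 CPM in the other 6 libraries; their part was not tested.

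Per length, Thbs2 stood at 0.0404 to 0.399 of Thbs1 in SA and at 0.265 to 1.15 of it in SS. SS replicate 2 was the only library in which Thbs2 exceeded Thbs1. Thbs2 lies on chromosome 17 (14665500 to 14694235, minus strand), the chromosome of Fndc1, and Thbs1 on chromosome 2 (118111876 to 118127133, plus strand).

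SPARC, also called osteonectin, binds collagen and is abundant in bone, and its relative SPARC-like 1 is known from vessels and brain. Sparc was at 1536, 2345, 5505 and 4019 CPM in SA and at 2165, 5011, 3890 and 4993 CPM in SS. The highest library was an SA one, replicate 3, and the 3 lowest were the leukocyte-rich ones. The means were 3351 ± 1770 and 4015 ± 1340 CPM (log2 fold change 0.26, SE 0.40, 95% interval -0.62 to 1.14, adjusted p = 0.923), with -0.04 when the leukocyte-rich libraries were left out.

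Sparcl1 varied most of the 10, by 15.5-fold between SA replicate 2 and SS replicate 4. Its CPM values were 20.3, 15.8, 55.4 and 153 in SA and 73.1, 87.1, 155 and 246 in SS. SA replicate 4 lay above SS replicates 1 and 2, and the other 3 SA libraries lay below every SS library. The log2 fold change was 1.197 (SE 0.67, 95% interval -0.28 to 2.68, adjusted p = 0.752). It was 2.20 without SA replicate 4 and 0.64 without the leukocyte-rich libraries. SS replicate 4, the highest, was also the library richest in pericyte and smooth muscle markers, at the sum given beside Fn1.

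The CCN proteins Ctgf and Cyr61, also named CCN2 and CCN1, are small secreted proteins that bind integrins and are among the best known targets of the YAP and TAZ coactivators and of TGF-beta. Cyr61 was at 339, 319, 489.6 and 544 CPM in SA and at 583.5, 1143, 1144 and 680.5 CPM in SS. SS replicates 2 and 3 reached nearly the same level and the other SS libraries lay closer to SA replicate 4. The means of 423 ± 111 and 888 ± 298 CPM gave a log2 fold change of 1.07 (SE 0.28, 95% interval 0.44 to 1.70, adjusted p = 0.595; by DESeq2 adjusted p = 0.0674). The value was 0.79 with the covariate and 0.93 without the leukocyte-rich libraries.

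Ctgf was at 299, 189, 465 and 445 CPM in SA and at 388, 421, 693 and 494 CPM in SS. SS replicates 1 and 2 lay below SA replicates 3 and 4, and the leukocyte-rich libraries were the 3 lowest. The means were 349.6 ± 130.1 and 499 ± 137 CPM (log2 fold change 0.51, SE 0.30, 95% interval -0.15 to 1.18, adjusted p = 0.754), and the value was 0.23 without the leukocyte-rich libraries. Both CCN genes were highest in SS replicate 3, which also had the highest sum of 19 immediate early genes, 7344 CPM against 3073 to 5759 CPM elsewhere. In SS replicate 2, Cyr61 was equally high while that sum was the lowest of the 8 libraries. The part of the immediate early genes in these values was not tested.

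Read together, 9 of the 10 genes had a higher mean in SS and 1, Thbs1, a lower one, where 49% of all genes tested were higher. The median log2 fold change was 0.40 over the 10 genes and -0.01 over all genes. As the genes were picked in view of this comparison and vary together, nothing is read from these differences. With the pan-leukocyte covariate Postn, Tnc and Sparc had negative values and the median of the 10 genes was 0.23. Without the 3 leukocyte-rich libraries that median was 0.44. edgeR called 0 of the 10 at an adjusted p under 0.05, and 0% of all genes. At an unadjusted p under 0.05 there were 3 higher (Fndc1, Thbs2 and Cyr61) and 0 lower, against 4.03% and 2.96% of all genes. DESeq2 called 2 higher, Fndc1 and Thbs2, against 0.914% of the 19472 genes to which it gave an adjusted p. limma-voom called 0. A value that missed the threshold does not show that the genotypes are alike, and the intervals of Postn and Sparcl1 are the widest.

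**Figure D2:**
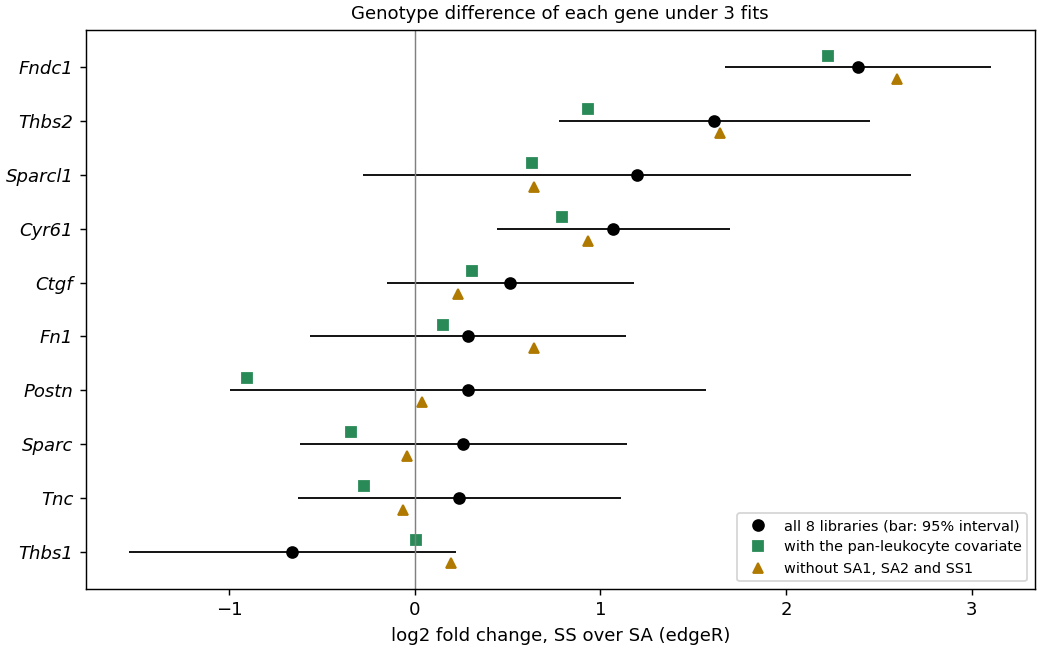
Log2 fold change, SS over SA, of each gene from edgeR with all 8 libraries (black circles, bars are 95% intervals), with the pan-leukocyte level as a covariate (green squares) and without the 3 leukocyte-rich libraries (ochre triangles). Fndc1 stayed between 2.22 and 2.60 under the 3 fits, while Tnc, Sparc, Thbs1 and Postn changed sign between them.

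Levels between genes were compared per kilobase of annotated exon. Averaged over the 8 libraries, Sparc stood at 972 ± 395 and Tnc at 804 ± 335 CPM per kilobase (SD, n = 8), far above the rest. Cyr61 followed at 325 ± 161 and Ctgf at 148 ± 51.5 CPM per kilobase. Fn1 at 74.2, Thbs1 at 72.1 and Postn at 70.1 CPM per kilobase did not differ beyond their spread. Sparcl1 at 34.3 and Thbs2 at 24.7 CPM per kilobase also overlapped, as did Postn and Sparcl1, and Fndc1 was the lowest at 9.83 ± 8.63. The order of neighbours held in all 8 libraries for Tnc above Cyr61, Cyr61 above Ctgf and Thbs2 above Fndc1. Sparc was above Tnc in 6 libraries, all 4 of SS and 2 of SA. By CPM without regard to length, Tnc was the 8th most abundant of the genes tested in SA and the 7th in SS, whereas Fndc1 moved from rank 5227 to rank 848. The 10 genes together took up 0.843% to 1.79% of all counts, and Tnc and Sparc made up 65.5% to 83.6% of their summed CPM.

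The genes were also compared in how they varied among libraries of the same genotype, by subtracting each genotype's mean of log2 CPM and correlating the 8 libraries. Leaving aside Thbs1 and Fn1, all 28 pairs of the other 8 genes were positively correlated, with r from 0.24 (Fndc1 with Sparcl1) to 0.94 (Tnc with Cyr61). Thbs1 was negatively correlated with 8 of the other 9, from -0.39 with Fndc1 to -0.89 with Tnc, and positively only with Fn1 (0.52). These values share the same libraries, depth and leukocyte content and are a description, with no test. In the heat map of the 10 genes, Thbs1 was high and Postn, Tnc, Sparc and Ctgf were low in the leukocyte-rich SA replicates 1 and 2. In SS replicate 1, also leukocyte-rich, Thbs1 (0.08) and Ctgf (-0.05) lay near their means on that log2 scale. Postn, Tnc and Sparc were low there too (-1.46, -0.60 and -0.64).

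**Figure D3:**
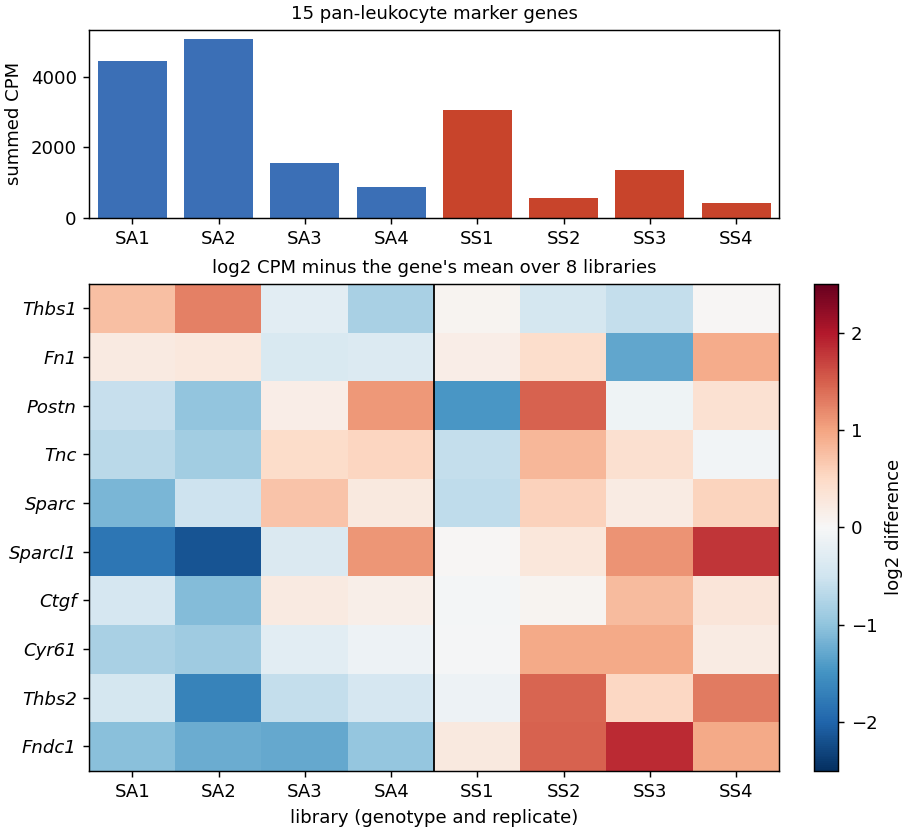
Top, summed CPM of 15 pan-leukocyte marker genes in each library. Bottom, log2 CPM of each gene minus its own mean over the 8 libraries, with red above and blue below the mean; Thbs1 is above its mean and Postn, Tnc, Sparc and Ctgf are below theirs in SA replicates 1 and 2, and Fndc1 is below its mean in every SA library and above it in every SS library.

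Some other genes followed single members closely in the same centred values. Out of 10727 genes at 5 CPM or more, those most like Tnc were Fap, a membrane protease of activated fibroblasts (r = 0.998 over 8 libraries), Antxr1, a collagen-binding receptor (r = 0.997), and App, the amyloid precursor protein (r = 0.997). Fndc1 was most like Dnmt3a, a DNA methyltransferase (0.983), Sarnp (0.979) and Ccdc107 (0.974). Without centring, r with Fndc1 was 0.60 for Dnmt3a, 0.33 for Sarnp and -0.23 for Ccdc107. Sparc was most like Col5a2, a fibrillar collagen chain (0.995), Amz2 (0.992) and Tmem29 (0.973). The first match was Lbh for Postn (0.995), Pi15 for Thbs2 (0.987), Fzd1, a Wnt receptor, for Sparcl1 (0.976), Zbtb8a for Ctgf (0.998) and B2m, the light chain of class I histocompatibility molecules, for Cyr61 (0.989). Thbs1 was most like Zgrf1 (0.986) and Fn1 most like Arhgdia (0.957). Without centring, r with the first match was 0.41 for Cyr61 and 0.90 to 0.99 for the members other than Cyr61 and Fndc1. Each centred value is the highest of many from few libraries, so a high r was to be had by the search alone.

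Receptors that bind these proteins were counted next. Of 16 receptor genes, all tested, 12 were higher and 4 lower, with a median log2 fold change of 0.56 and 0 called by edgeR. Lrp1, an endocytic receptor that clears thrombospondins and other matrix proteins, was at 413 to 681 CPM in SA and 747 to 1381 CPM in SS, without overlap (log2 fold change 1.18, SE 0.25, adjusted p = 0.411; by DESeq2 adjusted p = 0.00795). Calr, calreticulin, which also serves as a thrombospondin receptor at the cell surface, averaged 246 ± 45.6 and 386 ± 59.7 CPM (0.65, SE 0.20, adjusted p = 0.679). On the other side were the integrin chains Itga4, which binds fibronectin, at -0.99 (SE 0.54) and Itgb3 at -0.71 (SE 0.45). Itga4 and Itgb3 are also made by blood cells, and Itga4 overlapped widely, at 95.4 to 341 CPM in SA and 40.6 to 226 CPM in SS.

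Among relatives of the 10, the picture was mixed. Of 18 other matricellular genes 15 were tested, 12 of them higher and 3 lower, with a median of 0.55 and 0 called by edgeR. Fstl1, a SPARC-related secreted protein, ran from 458 to 1077 CPM in the SA and from 1276 to 2267 CPM in the SS libraries (1.08 on the log2 scale, SE 0.30, adjusted p = 0.604). Tnxb, tenascin-X, and Thbs4 were near the floor of the data, at means of 0.166 and 1.26 CPM and of 2.37 and 0.357 CPM in SA and SS, and Spock1 was absent from some libraries of both genotypes. Of 12 genes named for a fibronectin type III domain 6 were tested, 3 higher and 3 lower (median -0.23). Fndc4, a membrane protein of that family, was at 1.32 to 7.33 CPM in SA and 7.96 to 21.4 CPM in SS (1.95, SE 0.66, adjusted p = 0.695). Fndc3a was at 158 ± 13.6 and 199 ± 21.9 CPM, and Fndc10 and Fsd1l had negative values of -1.11 (SE 0.86) and -0.79 (SE 0.62).

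Genes known to respond to the same signals as the CCN genes were counted as well. Of 20 YAP and TAZ targets 13 were higher and 7 lower in SS (median 0.38), with Arhgef17 (0.99, SE 0.33) and Crim1 (0.67, SE 0.23) having the smallest p among the higher and Dock5 (-1.37, SE 0.52) and Nt5e, the ecto-enzyme CD73 (-1.35, SE 0.51), among the lower. Of 15 tested genes that TGF-beta induces in fibroblasts 11 were higher and 4 lower (median 0.41). Col3a1, a fibrillar collagen, was at 226 to 493 CPM in SA and 878 to 2315 CPM in SS (2.004, SE 0.36, adjusted p = 0.295; by DESeq2 adjusted p = 0.000416). The main fibrillar collagen Col1a1 (-0.83, SE 0.58) and Cthrc1 (-1.35, SE 1.12) had negative values. Of 19 immediate early genes 6 were higher and 13 lower (median -0.14), led by Jun (0.72, SE 0.24) and Junb (0.42, SE 0.24) and, in the other direction, by Klf2 (-0.87, SE 0.38) and Atf3 (-0.86, SE 0.46). edgeR called 0 genes in each of these 3 lists.

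**Figure D4:**
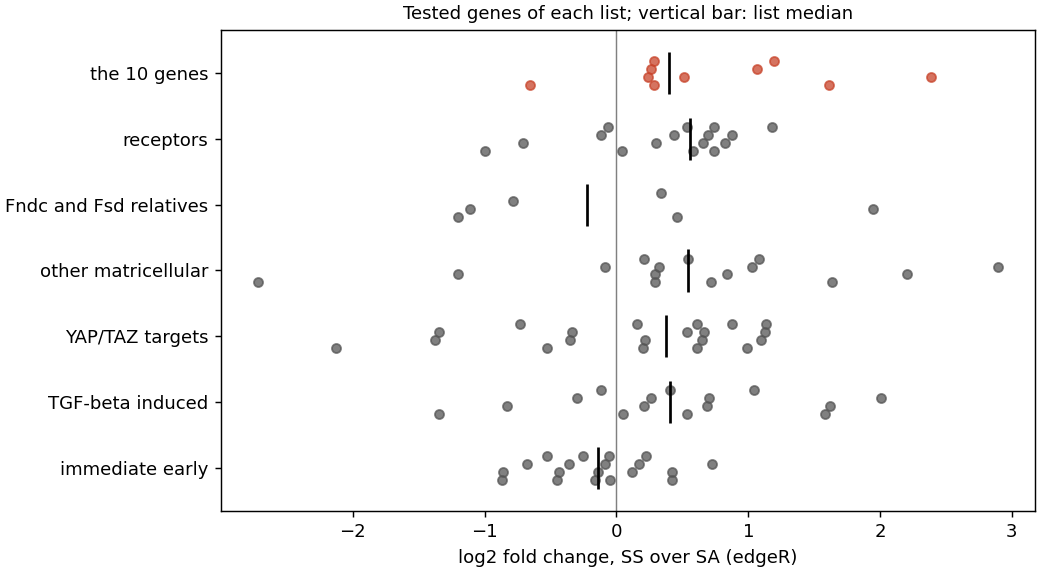
Log2 fold change, SS over SA, of the 10 genes (red) and of the tested genes of 6 related lists (grey), with each list's median as a vertical bar. Medians ran from -0.23 for the fibronectin type III relatives to 0.56 for the receptors, with 0.40 for the 10 genes, and no gene shown passed the edgeR test.

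Marker lists of other cell types give the setting of these values. All 15 pan-leukocyte, 12 B cell and 12 neutrophil markers had lower means in SS, as had the 9 tested megakaryocyte markers. Of 11 pericyte and smooth muscle markers 10 were higher (median 1.06), of 9 tested fibroblast markers 6 (median 1.61), and of 9 tested osteoblast markers 3 (median -0.88). Of 11 tested macrophage markers 7 were higher (median 0.25), of 10 endothelial markers 6 (median 0.53). Tendon and cartilage markers were higher in 5 of 7 tested (median 0.72). Among the 10 niche stroma markers 9 were higher (median 0.28), where 49% of all genes tested were higher. Macrophage markers summed to 221 to 1179 CPM in SA and 220 to 1082 CPM in SS, endothelial markers to 19.9 to 118 and 21.7 to 148 CPM, and tendon and cartilage markers to 111 to 511 and 85.3 to 659 CPM, with Kera at 0 in every library.

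Annotated positions leave a limit on some of the counts. On GRCm38, 5 of the 10 genes overlap another annotated gene on the opposite strand, namely Fn1, Tnc, Thbs1, Sparcl1 and Ctgf, and no source states whether the counting used strand, so that the partners' reads cannot be told apart. Fndc1, Thbs2 and Cyr61, with Postn and Sparc, overlap none.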

How the data were processed

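The deposited files are a table of unnormalized counts, 1 row for each gene symbol, and a table of signal made by the authors, in which each count is divided by 1 factor per library (0.953 to 1.13). Per the submitters' processing notes, the tools were bcl2fastq, STAR, featureCounts and DESeq2, and the builds listed are mm10 and GRCm38; no version, annotation or strand setting was given in those sources. In GEO, 16 samples make up 8 libraries on 2 lanes each, and each table has 1 column per library. The signal table was used only to obtain these factors.

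The genotype comparison used edgeR 4.0.16 (R 4.3.3): filterByExpr with the genotype as group kept 17316 genes, TMM scaled the libraries, and a robust quasi-likelihood F test without covariate gave p-values, adjusted by Benjamini-Hochberg (threshold 0.05). CPM uses TMM-adjusted library totals. SE is the log2 fold change divided by the root of F, and intervals are 95% from the test's degrees of freedom. Alternatives used DESeq2 1.42.0 on every gene with a count, and limma 3.58.1 (voom). Scripts were tested on simulated counts. Exon lengths and positions are from GENCODE M21 on GRCm38. Ctgf and Cyr61 were matched through the RefSeq synonyms of Ccn2 and Ccn1. Promoters are RefSeq sequences (GRCm38.p6).

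The members and lists were chosen with earlier results of these data known. Named besides the members are up to 2 genes per related list and direction with the smallest p, and the 3 genes most like each member in centred log2 CPM (prior count 2), of which some are given by the first alone. Of the genes this rule names, 1 is not reported here. No replicate pair agreed within counting noise (lowest chi-square per gene 120).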

Additional observations from a re-analysis of the deposited data

How the results depend on the processing

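edgeR called 0 genes and 0 members, and DESeq2 315 and 2. Without a low-count filter edgeR called 5 of 31321 genes (Dclk1, Dkk3, Fndc1, Gzme and Mmp11), of which 1 is a member. With the pan-leukocyte covariate it called 1 gene, Dmp1, and 0 members. Leaving out 1 replicate gave 0 to 1 genes and 0 to 1 members, the 1 being Fndc1 without SS replicate 1 (adjusted p = 0.0351). Over all 19 alternatives its log2 fold change ran from 2.11 to 2.61 and its adjusted p from 2.7e-07 to 0.587. Signs of Fn1, Postn, Tnc, Thbs1 and Sparc turned in places. With the covariate Postn was -0.90, Tnc -0.27, Sparc -0.34 and Thbs1 0.0064. Without the 3 leukocyte-rich libraries Tnc was -0.065, Sparc -0.043 and Thbs1 0.20. With each replicate left out, Fn1 ran from -0.022 to 0.58 (lowest without SS replicate 4), Postn from -0.35 to 0.82 and Tnc from -0.026 to 0.48 (both lowest without SS replicate 2). The other 5 genes kept their sign under every alternative run. Members without overlap, a count added after the data were seen, numbered 3 under each other scaling (2.34% to 2.85% of all genes tested), 3 to 4 with a replicate left out (3.39% to 5.59%; Sparcl1 joined without SA replicate 4, at 5.16%) and 3 without the leukocyte-rich libraries (11.2%). With the replicate number as a replicate block edgeR called 0 genes and Fndc1 was at 2.28 (adjusted p = 0.453), Sparcl1 at 1.62 and Fn1 at 0.12. The numbers were not taken as pairs: same-numbered libraries correlated at r = 0.22, -0.15, -0.02 and 0.14 in their deviations, and not every library correlated best with its own number. Replicate number, at 4 per genotype, limits precision.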
